A study of Mus musculus with 12 samples.

Results

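Ribosome biogenesis genes and Myc were followed across 4 cultures of mouse CD8 T cells. The set holds 35 genes, taken by symbol from a list of nucleolar factors and the transcription factor Myc, out of 46078 genes in the count tables. The list was chosen with earlier results of these data known. Each had to reach 120 counts summed over the 12 libraries, and the lowest member, Gar1, had 5121, so all 35 were kept and all 35 also passed the filter on low counts. Ribosomes are assembled in the nucleolus, where RNA polymerase I transcribes the long ribosomal RNA precursor and small nucleolar ribonucleoproteins guide its chemical modification. Processing factors then fold and cut the precursor into a small and a large subunit, which are exported to the cytoplasm. Myc pairs with Max and drives many genes of this pathway, and in T cells it accompanies the growth that follows activation.

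CD8 T cells were taken from spleens of C57BL/6 mice and RNA was isolated on day 7 of culture. All 4 groups were given IL-2 and IL-15, interleukins on which activated CD8 T cells live, and the group named IL-2 + IL-15 received nothing more. The RA group also received all-trans retinoic acid, the form of vitamin A that binds nuclear receptors, the TGFβ group transforming growth factor beta, a cytokine that signals through SMAD proteins, and the TGFβ + RA group both. Each group had 3 libraries, which the labels call biological replicates without saying that they came from separate animals, and the spread behind each p-value, between these samples only, may therefore be technical. In bulk RNA, fewer cells of a type and less RNA per cell cannot be told apart.

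Libraries held 18300206 to 33477037 counts. The CD8 T cell label was checked against Cd8a, Cd8b1, Cd3e, Cd3g and Cd2, which were all well detected and together made up 6610 to 6880 counts-per-million (CPM) in TGFβ + RA, 5870 to 6060 in TGFβ, 3190 to 3580 in RA and 3270 to 3770 in IL-2 + IL-15. Of the 4 B cell markers, summed counts were at most 19 in any library, and the defining myeloid genes Csf1r and Adgre1 had at most 6 counts. TGFβ + RA replicate 3 held 323 Lyz2, 177 S100a9 and 97 S100a8 counts, from genes of neutrophils and monocytes, against at most 23 of each elsewhere. RA replicate 3 and IL-2 + IL-15 replicate 1 stood apart from the others of their groups. Levels below are CPM scaled by the trimmed mean of M values (TMM), given as mean ± SD with n = 3. Fold changes were tested with edgeR's quasi-likelihood test, with p-values adjusted by Benjamini-Hochberg over 14009 genes, and a gene was called at an adjusted p under 0.05.

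With TGFβ, 34 of 35 members fell against IL-2 + IL-15, while 22.4% of all tested genes were called lower in this comparison. The median log2 fold change of the members was -0.64, against 0.00 for all tested genes. In 34 members the 3 TGFβ libraries all lay below the 3 IL-2 + IL-15 libraries, which held for 28.7% of all tested genes. No member was called higher, with 0 at an unadjusted p under 0.05 by edgeR and 0 by DESeq2, where 20.7% of all tested genes were called higher. The remaining member was Noc4l, which partners Nop14 in yeast small subunit assembly.

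The genes named first lie on different chromosomes. On GRCm38, by GENCODE vM21, Myc spans chr15:61985391-61990374 on the plus strand, Npm1 chr11:33152287-33163206 and Wdr12 chr1:60069785-60098645, both on the minus strand, and Rrp12 chr19:41862851-41896173, also on the minus strand. All 35 members are annotated as protein coding.

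Myc stood at 98.77, 105.44 and 108.35 CPM in TGFβ cultures, against 236.67, 229.12 and 229.46 CPM in IL-2 + IL-15 cultures. The groups were far apart, and the means of 104 ± 4.91 and 232 ± 4.27 CPM differed by a log2 fold change of -1.15 ± 0.05 (SE, adjusted p = 1.17e-09). Npm1, which encodes the abundant nucleolar chaperone nucleophosmin, had 524.31, 596.33 and 577.28 CPM with TGFβ and 1293.89, 1292.78 and 1295.85 CPM in IL-2 + IL-15. This was the largest fall of any member, at -1.19 ± 0.08 (adjusted p = 7.26e-08). Wdr12, the third partner of Pes1 and Bop1 in the PeBoW complex of large subunit maturation, had 19.46, 18.63 and 20.06 CPM with TGFβ and 43.16, 37.26 and 39.86 CPM in IL-2 + IL-15. Its log2 fold change was -1.05 ± 0.12 (adjusted p = 1.5e-05), and the groups did not overlap.

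**Figure D1:**
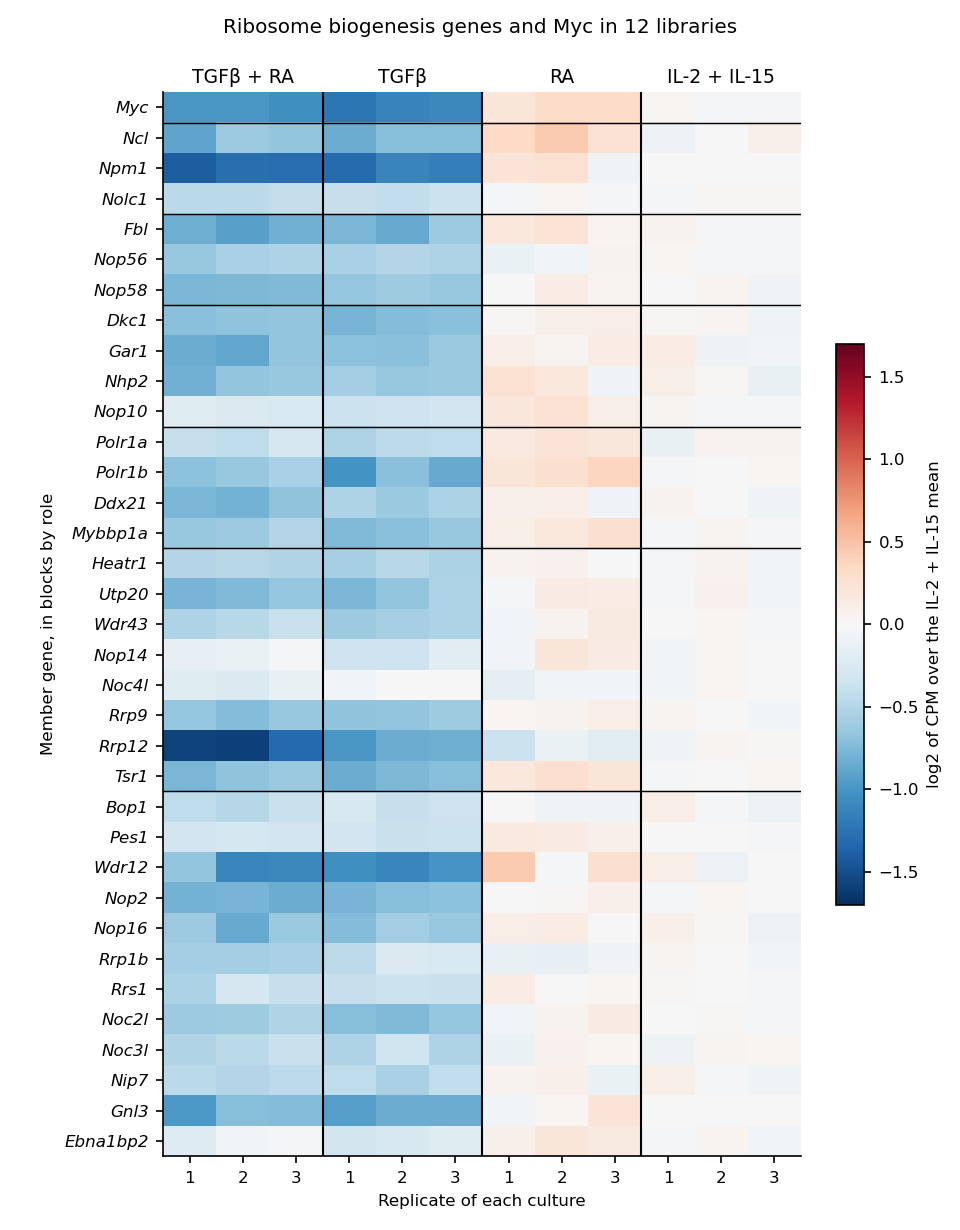
Each cell is a library (columns, 3 replicates in each of 4 cultures) and a member gene (rows, in blocks by role), coloured by log2 of its CPM over the mean of IL-2 + IL-15. The 6 libraries with TGFβ are blue for nearly all members, and the rows of Noc4l, Nop14 and Ebna1bp2 are the palest there.

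Members of every role fell with TGFβ. Among the nucleolar shuttling proteins, Ncl (nucleolin) fell by 0.77 and Nolc1, a chaperone of small nucleolar ribonucleoproteins, by 0.39 on the log2 scale. In the box C/D particle, which methylates ribosomal RNA, the methyltransferase gene Fbl fell by 0.74 and the scaffold genes Nop58 and Nop56 by 0.64 and 0.53. In the box H/ACA particle, which makes pseudouridine, the synthase gene Dkc1 fell by 0.74, Gar1 by 0.68, Nhp2 by 0.62 and Nop10 by 0.35. Each of these 9 genes was called at an adjusted p of 7.86e-05 or below.

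The 4 members of the RNA polymerase I block fell as well. Polr1b, the second largest subunit, fell by 0.86 and Polr1a, the largest, by 0.46, with Mybbp1a, a nucleolar transcription cofactor, at -0.70 and the RNA helicase gene Ddx21 at -0.57. Of the 8 small subunit factors 7 fell, with a median of -0.61. Rrp12, whose yeast homologue takes part in export of the subunits, had the largest change at -0.89, followed by Tsr1 (-0.78), Utp20 (-0.66) and Rrp9 (-0.65). All 12 large subunit factors fell, with a median of -0.46 and a range of -1.05 for Wdr12 to -0.26 for Ebna1bp2. After Wdr12 came Gnl3 (nucleostemin) at -0.87, Nop2, a ribosomal RNA cytosine methyltransferase, at -0.74 and Noc2l at -0.71. The 3 PeBoW genes did not move by equal amounts, since Pes1 and Bop1 fell by 0.35 and 0.33.

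Noc4l had 58.64, 60.7 and 60.7 CPM with TGFβ and 58.41, 61.84 and 60.64 CPM in IL-2 + IL-15. These values overlapped, and the log2 fold change of -0.01 ± 0.05 did not pass (adjusted p = 0.926). Scaled by total counts it was 0.06 (adjusted p = 0.377 by edgeR), so its sign was not fixed.

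**Figure D2:**
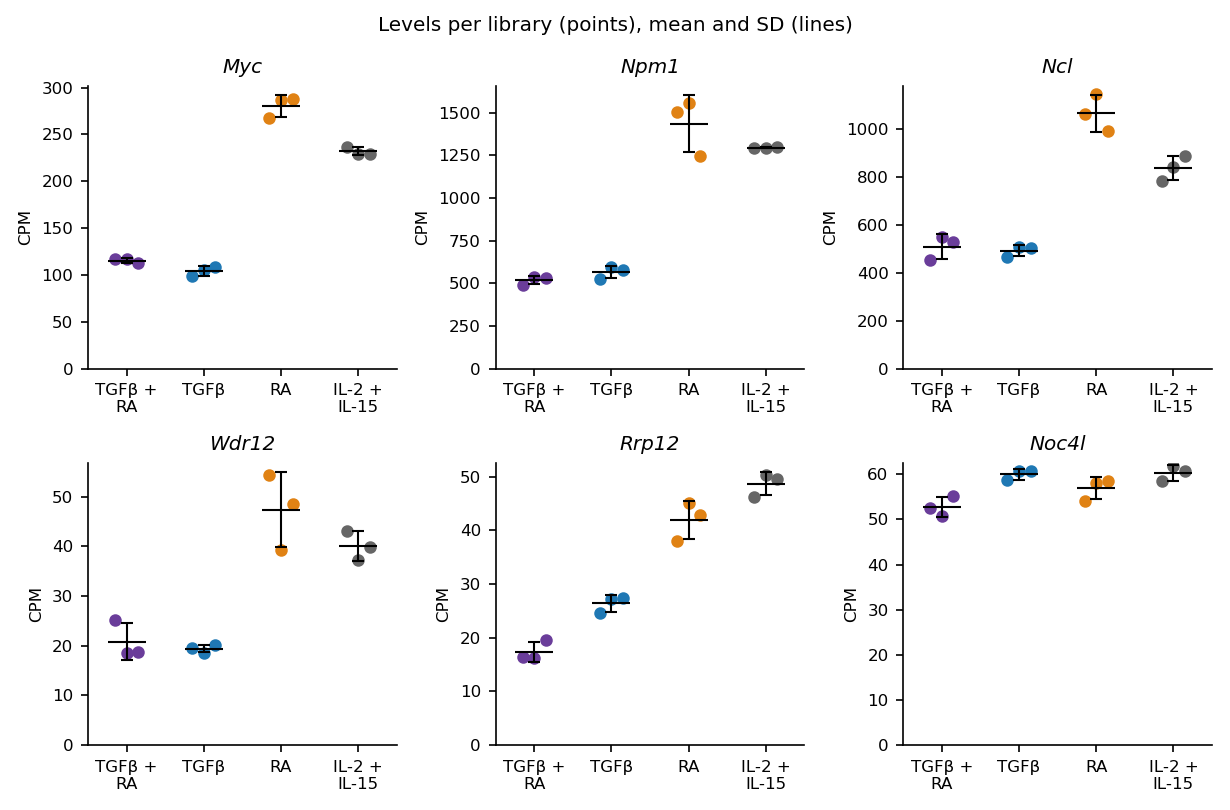
CPM (vertical axes, from 0) of Myc, Npm1, Ncl, Wdr12, Rrp12 and Noc4l in each culture, with a point per library and lines for the mean and SD (n = 3). Myc averages 115 CPM in TGFβ + RA, 104 in TGFβ, 280 in RA and 232 in IL-2 + IL-15, Rrp12 is lowest in TGFβ + RA, and the 4 cultures lie close together for Noc4l.

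The promoters of the members were searched for CACGTG, the E-box to which Myc and Max bind as a pair. The motif reads the same on both strands. RefSeq promoter windows on GRCm38.p6, from 250 bases before to 50 bases after a start, were at hand for 29 of the 35 members, with 33 windows in all. The motif was in windows of 6 of these 29 genes (20.69%), against 8.09% of all genes in the table and 11.57% of the tested genes that have an entry. These are the 6 sites, each 30 bases long and read 5′ to 3′ on the gene's strand, with the motif in capitals. They are shown because they are the places in these windows where the Myc motif stands in a gene that fell with TGFβ.
Nop2, chr6:125131811-125131840, plus strand: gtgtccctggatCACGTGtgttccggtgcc
Utp20, chr10:88826765-88826794, minus strand: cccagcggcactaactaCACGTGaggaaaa
Pes1, chr11:3963965-3963994, plus strand: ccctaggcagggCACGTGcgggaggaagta
Mybbp1a, chr11:72441347-72441376, plus strand: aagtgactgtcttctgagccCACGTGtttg
Tsr1, chr11:74898092-74898121, plus strand: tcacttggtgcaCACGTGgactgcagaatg
Wdr43, chr17:71616220-71616249, plus strand: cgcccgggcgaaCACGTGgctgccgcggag

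In Nop2 the motif began 60 bases before the annotated start. In the other 5 it lay after the start, at 3 bases in Pes1, 18 in Wdr43, 25 in Tsr1, 38 in Utp20 and 41 in Mybbp1a. With only the 250 bases before the start, Nop2 alone of the 29 held it (3.45%), against 6.86% of all genes in the table and 9.68% of the tested genes, so the members' share was then the lower. The 6 genes with the motif had a median log2 fold change of -0.68 with TGFβ, and the 23 genes without it -0.57, so genes with and without the letters fell. The shares and medians leave out the 6 members without a window. These were Npm1 (-1.19), Myc (-1.15), Rrp12 (-0.89), Fbl (-0.74), Rrs1 (-0.38) and Bop1 (-0.33), with their values for TGFβ against IL-2 + IL-15. A match is not a site of binding, and binding was not measured here.

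TGFβ and RA together gave the same picture against IL-2 + IL-15 for most members, with a deeper fall of Rrp12. Against IL-2 + IL-15, 33 of 35 members fell, where 32.4% of all tested genes were called lower, and the same 33 had all TGFβ + RA libraries below all IL-2 + IL-15 libraries (35.4% of all tested genes). The median of the members was -0.63, against 0.00 for all tested genes. No member was called higher, with 0 at an unadjusted p under 0.05 by edgeR and 0 by DESeq2 (30.8% of all tested genes were called higher). Not called were Ebna1bp2, a large subunit factor, at -0.10 (adjusted p = 0.155) and Nop14 at -0.10 (adjusted p = 0.225).

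Rrp12 had 16.35, 16.22 and 19.5 CPM in TGFβ + RA, against 46.27, 50.28 and 49.62 CPM in IL-2 + IL-15. Its log2 fold change was -1.49 ± 0.08 (adjusted p = 4.54e-09), to 0.36 of the IL-2 + IL-15 level. Npm1 had 491.43, 534.42 and 528.36 CPM in TGFβ + RA, against 1293.89, 1292.78 and 1295.85 CPM in IL-2 + IL-15, and fell by 1.32 ± 0.08 on the log2 scale (adjusted p = 6.86e-09). Myc had 116.92, 116.49 and 112.42 CPM in TGFβ + RA and fell by 1.01 ± 0.05 (adjusted p = 8.38e-10). In this comparison with IL-2 + IL-15, none of the calls on the 35 members changed when TGFβ + RA replicate 3, the library with Lyz2 and S100a9 counts, was left out.

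Set against RA alone, TGFβ + RA asks what TGFβ does in the presence of retinoic acid. Here 34 of 35 members fell, where 30.8% of all tested genes were called lower, and in 33 the libraries did not overlap (32.8% of all tested genes lay below in the same way). The median was -0.76. No member was called higher, with 0 at an unadjusted p under 0.05 by edgeR and 0 by DESeq2, against 29.4% of all tested genes. Noc4l was again not called (-0.11 ± 0.05, adjusted p = 0.0711), and Nop14 was called at -0.20 (adjusted p = 0.0178) with overlapping libraries, a call lost without RA replicate 2 or without TGFβ + RA replicate 1 or 2, when scaled by total counts and in a fit of these 6 samples only. Noc4l was called lower without RA replicate 1 and without TGFβ + RA replicate 3.

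Npm1 had 491.43, 534.42 and 528.36 CPM in TGFβ + RA and 1504.71, 1554.43 and 1245.76 CPM in RA, a log2 fold change of -1.47 ± 0.08 (adjusted p = 5.82e-09). Myc had 116.92, 116.49 and 112.42 CPM in TGFβ + RA and 267.19, 287.0 and 287.26 CPM in RA, with -1.28 ± 0.05 (adjusted p = 2.96e-10). Rrp12 had 16.35, 16.22 and 19.5 CPM in TGFβ + RA and 37.99, 45.01 and 42.87 CPM in RA, with -1.27 ± 0.08 (adjusted p = 3.71e-08). All 3 genes were separated without overlap. Other falls of at least 1 on the log2 scale were those of Wdr12 (-1.20), Ncl (-1.07) and Fbl (-1.01).

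The effects of TGFβ with RA (TGFβ + RA against RA) and without it (TGFβ against IL-2 + IL-15) share no library, so they can be set side by side gene by gene. All 35 members had a negative value in both. Across the 35 genes, which are not independent replicates, Pearson's r was 0.948 and Spearman's rho 0.94. In 30 of the 35 the value with RA was the lower, and the median difference over all 35 was -0.10. The share of all tested genes for this count is not given here.

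**Figure D3:**
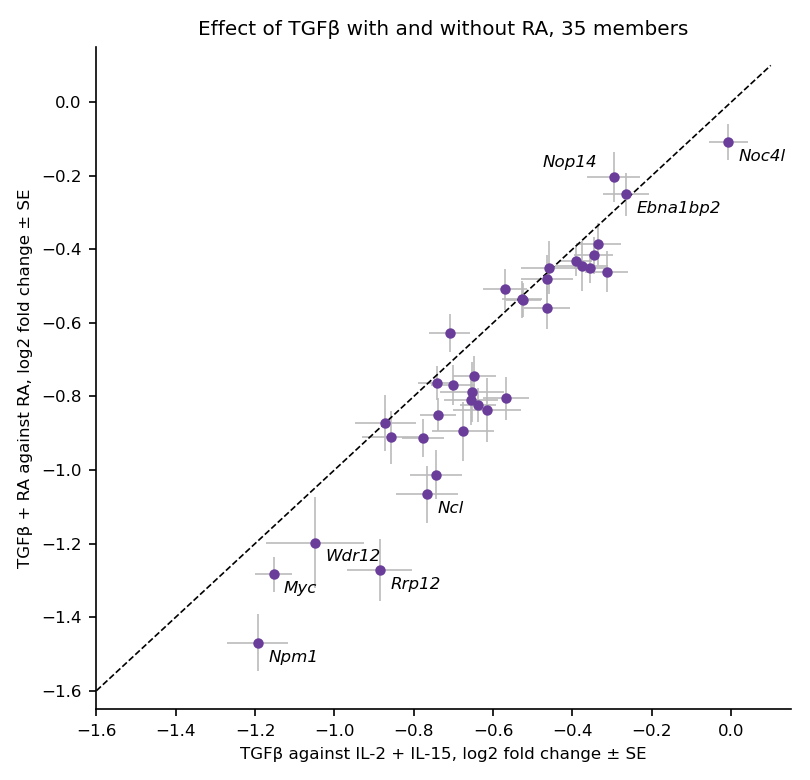
Log2 fold change ± SE of each of the 35 members with TGFβ without RA (horizontal) and with RA (vertical), with a dashed line where both are equal. All points are below 0 on both axes, 30 lie below the dashed line, and Rrp12 is the farthest from it.

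Over all 12 libraries, 32 of the 35 members (91.4%) had each of the 6 libraries with TGFβ below each of the 6 without, against 14.4% of all tested genes. The exceptions were Nop14, Noc4l and Ebna1bp2. The order of the 4 group means was RA, IL-2 + IL-15, TGFβ + RA and TGFβ from high to low for 17 members, Myc among them. For 12 members, with Npm1, Fbl and Nop58 among them, the last pair was turned round. For another 5, namely Nolc1, Nop56, Rrp12, Bop1 and Rrp1b, IL-2 + IL-15 stood above RA. Noc4l had an order of its own, with TGFβ above RA. Neighbours in these orders often did not differ, as the comparisons of RA show.

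Retinoic acid without TGFβ moved fewer members, and in the other direction. RA raised 8 of 35 members against IL-2 + IL-15, where 12.4% of all tested genes were called higher, and the median log2 fold change of the members was 0.08, against -0.00 for all tested genes. The 8 were Ncl (0.35), Polr1b (0.28), Myc (0.28), Tsr1 (0.22), Polr1a (0.19), Mybbp1a (0.18), Nop10 (0.18) and Pes1 (0.13). Polr1a was not called without IL-2 + IL-15 replicate 1 (adjusted p = 0.0653 by edgeR) and Mybbp1a not without IL-2 + IL-15 replicate 3 (adjusted p = 0.0779 by edgeR). Nop10 and Pes1 were not called without IL-2 + IL-15 replicate 3 or RA replicate 2, nor Pes1 without RA replicate 1, nor Polr1a without RA replicate 2. No member was called lower by edgeR, with 1 at an unadjusted p under 0.05 and 0 called by DESeq2, where 14.3% of all tested genes were called lower, and with the replicate number as a block Rrp12 was.

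Ncl had 1063.02, 1146.49 and 991.71 CPM in RA and 786.0, 840.97 and 888.24 CPM in IL-2 + IL-15. The groups did not overlap, and the log2 fold change of 0.35 ± 0.08 (adjusted p = 0.0043) was the largest rise of a member. Myc had 267.19, 287.0 and 287.26 CPM in RA and 236.67, 229.12 and 229.46 CPM in IL-2 + IL-15, a fold change of 1.21 (adjusted p = 0.000652). Polr1b had 50.69, 52.91 and 56.66 CPM in RA and 42.86, 43.94 and 44.92 CPM in IL-2 + IL-15, with 0.28 ± 0.07 (adjusted p = 0.00892). For all 3 genes each RA library lay above each IL-2 + IL-15 library.

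Across the members, 9 had all RA libraries above all IL-2 + IL-15 libraries (17.3% of all tested genes), and 2 had all of them below (18.7%). The pair below was Rrp12 at -0.21 ± 0.08 (adjusted p = 0.0625) and Rrp1b, a nucleolar protein of the large subunit block, at -0.11 (adjusted p = 0.156). Npm1 was at 0.15 (adjusted p = 0.175), with RA replicate 3 at 1245.76 CPM below every IL-2 + IL-15 library and the other RA libraries, at 1504.71 and 1554.43 CPM, above them. Without RA replicate 3, 11 members were called higher, with Npm1, Fbl and Nhp2 added. Without IL-2 + IL-15 replicate 3, 5 were called, and in a fit of these 6 samples only 4. In that block fit Rrp12 was at -0.22 (adjusted p = 0.0188 by edgeR) and Wdr12 and Ebna1bp2 were also called higher.

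**Figure D4:**
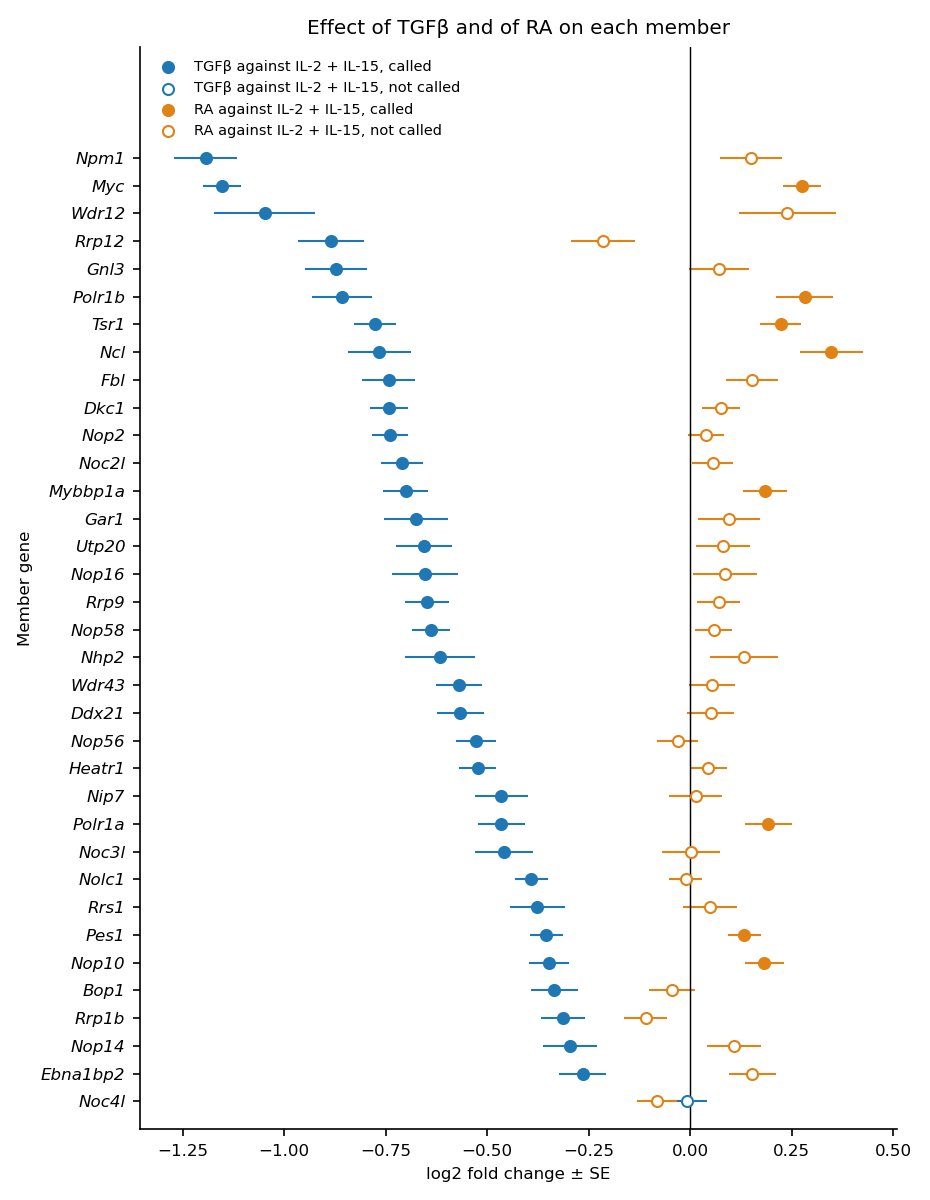
Log2 fold change ± SE of each member (rows, ordered by the value with TGFβ) with TGFβ (blue) and with RA (orange), each against IL-2 + IL-15. Filled points mark an adjusted p under 0.05. The blue points run from -1.19 for Npm1 to -0.01 for Noc4l, and the orange points from -0.21 for Rrp12 to 0.35 for Ncl.

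Adding RA to TGFβ moved few members, a smaller share in each direction than of all tested genes. Against TGFβ alone, TGFβ + RA raised 5 members and lowered 5, where 20.3% of all tested genes were called higher and 22.7% lower, and the median was -0.00. The 5 higher were Polr1b (0.23), Nop14 (0.20), Ebna1bp2 (0.17), Myc (0.15) and Noc2l (0.14). The 5 lower were Rrp12 (-0.60), Rrp1b (-0.26), Ddx21 (-0.19), Noc4l (-0.18) and Nop58 (-0.13). Nop58 was not called with any library of these groups left out, nor by DESeq2, with total counts or without a filter. Ddx21 was not called without TGFβ replicate 1 or 3, nor without TGFβ + RA replicate 1 or 2. In 7 members all TGFβ + RA libraries lay above all TGFβ libraries and in 6 below, against 29.2% and 28.7% of all tested genes.

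Rrp12 had 16.35, 16.22 and 19.5 CPM in TGFβ + RA and 24.55, 27.14 and 27.43 CPM in TGFβ, a log2 fold change of -0.60 ± 0.09 (adjusted p = 7.45e-05). Rrp1b had 52.08, 52.11 and 52.94 CPM in TGFβ + RA and 57.14, 65.8 and 64.95 CPM in TGFβ, with -0.26 ± 0.05 (adjusted p = 0.00188). Noc4l had 52.5, 50.76 and 55.14 CPM in TGFβ + RA and 58.64, 60.7 and 60.7 CPM in TGFβ, with -0.18 ± 0.05 (adjusted p = 0.00793). In each the groups did not overlap, and these 3 calls held in every alternative but the 1.5-fold minimum. Myc, with 116.92, 116.49 and 112.42 CPM in TGFβ + RA and 98.77, 105.44 and 108.35 CPM in TGFβ, was separated as well (0.15 ± 0.05, adjusted p = 0.0247). Its call and those of the other 4 members that rose were all lost without TGFβ replicate 1. With another library of these groups left out, 1 to 4 were left.

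The interaction, the log2 effect of TGFβ with RA minus that without RA, was called for 1 of 35 members. This was Rrp12 at -0.39 ± 0.12 (adjusted p = 0.0345), where 12.3% of all tested genes had an interaction below 0 at that threshold. The call was lost without RA replicate 2, without IL-2 + IL-15 replicate 1 or 3, without TGFβ replicate 2 or 3 and without TGFβ + RA replicate 1 or 2. None was called above 0, with 0 at an unadjusted p under 0.05 by edgeR and 0 by DESeq2, against 6.95% of all tested genes. In all 30 of 35 members had a value below 0, and 6 of these reached an unadjusted p under 0.05. Shares of all tested genes for these counts are not given here. The median interaction was -0.10 for the members and -0.00 for all tested genes. Ncl (-0.30, adjusted p = 0.0707), Npm1 (-0.28, adjusted p = 0.0904), Fbl (-0.27, adjusted p = 0.0577) and Ddx21 (-0.24, adjusted p = 0.0576) did not pass, and Myc was at -0.13 ± 0.07 (adjusted p = 0.195). Without RA replicate 3, 7 members were called, and without IL-2 + IL-15 replicate 1 Fbl and Ddx21 were called in place of Rrp12. DESeq2 called 4 members below 0, and 1856 of the 14009 tested genes. With the replicate number as a block Ncl was added (adjusted p = 0.0323 by edgeR).

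Summed over the 35 members, the level in TGFβ + RA was 58.3 ± 2.17% of the IL-2 + IL-15 mean (SD, n = 3), that in TGFβ 59.1 ± 1.81%, that in RA 111 ± 4.85% and that in IL-2 + IL-15 itself 100 ± 0.56%. The members took 0.290 to 0.309% of all counts in TGFβ + RA libraries, 0.291 to 0.311% in TGFβ, 0.524 to 0.561% in RA and 0.488 to 0.494% in IL-2 + IL-15. Npm1 and Ncl weigh heavily in this sum, with 33.6 to 36.6% of member counts in TGFβ + RA, 34.7 to 36.8% in TGFβ, 42.0 to 46.5% in RA and 41.6 to 43.6% in IL-2 + IL-15. Without both, the sum was 65.8 ± 1.75% in TGFβ + RA, 66.0 ± 1.42% in TGFβ and 106 ± 2.28% in RA. Per kilobase of exon Npm1 was the highest member in every culture, at 194 CPM in TGFβ + RA, 212 in TGFβ, 538 in RA and 486 in IL-2 + IL-15. Next in IL-2 + IL-15 came Myc at 85.3, Ncl at 82.3 and Noc2l at 77.3 CPM per kilobase, and Wdr12 was lowest at 3.35. The length used merges the exons of all annotated transcripts of a gene and can exceed that of its mRNA. It was 2717 bases for Myc, 10188 for Ncl and 11955 for Wdr12, so this order between genes depends on it. Without division by length, Ncl (838 CPM) stood above Myc (232 CPM) in IL-2 + IL-15. The SD between replicates had a median over the members of 4.49% of the mean in TGFβ + RA, 3.71% in TGFβ, 4.88% in RA and 3.21% in IL-2 + IL-15.

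**Figure D5:**
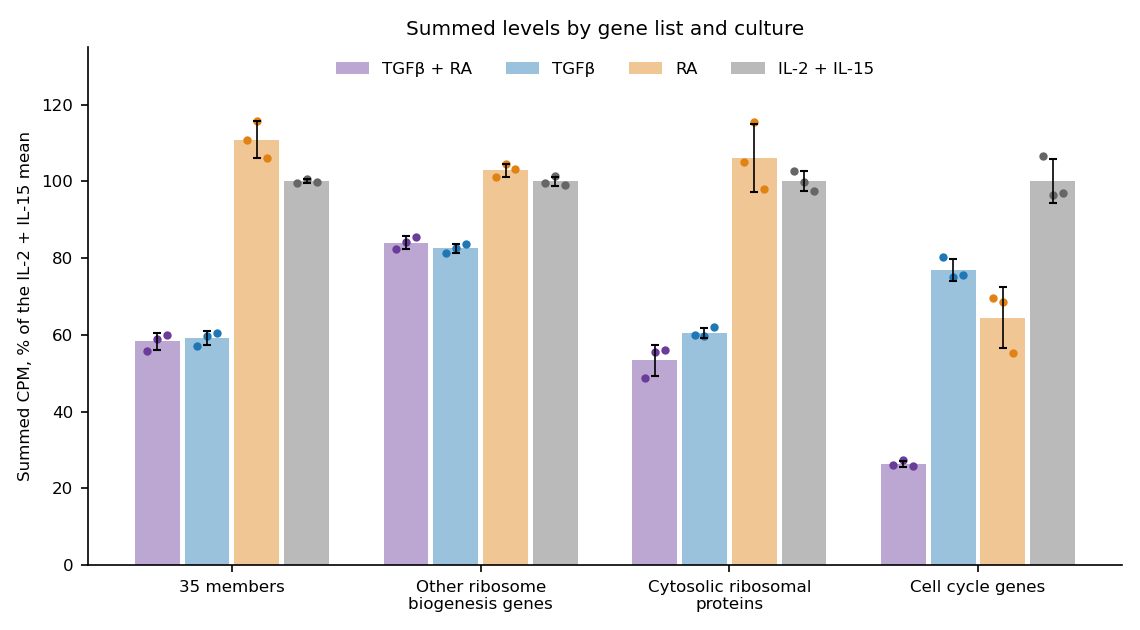
Summed CPM of the 35 members, of other ribosome biogenesis genes, of cytosolic ribosomal proteins and of cell cycle genes, as a percent of the IL-2 + IL-15 mean (bars from 0, SD over 3 libraries, points for libraries). The members stand at 58.3% in TGFβ + RA and 59.1% in TGFβ, while the cell cycle genes stand at 26.4% and 76.9% there and at 64.4% in RA.

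The rest of the ribosome assembly pathway was read from a list of 115 other factors. With TGFβ 80 fell and 2 rose against IL-2 + IL-15, with a median of -0.24, nearer to 0 than that of the members. Of all tested genes, 22.4% were called lower and 20.7% higher in this comparison. The members and this list were both chosen with earlier results of these data known. What part that choice has in the difference between their medians was not tested. The 2 that rose, named after their values were seen, were Rrp36 (0.20, adjusted p = 0.0129) and Taf1c (0.31, adjusted p = 0.000285). With TGFβ + RA 78 fell and 8 rose against IL-2 + IL-15 (median -0.28), and 83 fell and 7 rose against RA (median -0.33). Of all tested genes, 32.4% were called lower and 30.8% higher in the first of these comparisons. The shares were 30.8% and 29.4% in the second. RA itself raised 9 and lowered 5 of the 115 against IL-2 + IL-15 (median 0.04), smaller shares than the 12.4% and 14.3% of all tested genes. TGFβ + RA raised 14 and lowered 17 against TGFβ (median 0.01), again smaller shares than the 20.3% and 22.7% of all tested genes. Without IL-2 + IL-15 replicate 1, TGFβ + RA raised 3 in place of 8 and TGFβ 1 in place of 2, and RA lowered 1 in place of 5. Without RA replicate 3, RA raised 15. Summed, these genes stood at 84.0 ± 1.61% of the IL-2 + IL-15 mean in TGFβ + RA, 82.5 ± 1.14% in TGFβ and 103 ± 1.66% in RA.

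Within that list, 32 of 46 small subunit factors fell with TGFβ, where 22.4% of all tested genes were called lower. Among these factors the smallest adjusted p-values were those of the RNA acetyltransferase gene Nat10 (-0.88), Rcl1 (-0.72) and the nuclease gene Nob1 (-0.64). Of the 45 large subunit factors 34 fell, with Urb2 (-0.59), Nol9 (-0.56) and Rsl1d1 (-0.50) first by adjusted p. Among 10 assembly factors of box C/D and H/ACA particles 7 fell, among them Naf1 (-0.56). RNA polymerase I machinery was the mixed class, with 7 of 14 lower and Taf1c higher. In TGFβ + RA against IL-2 + IL-15, 8 of these 14 fell, among them Taf1d (-1.10) and Tcof1 (-0.70), while Taf1c (0.45), Ubtf (0.40), Ttf1 (0.15) and Rrn3 (0.14) rose. Ubtf encodes the upstream binding factor of ribosomal DNA and Taf1c and Taf1d subunits of the selectivity factor SL1, so these 2 of its genes moved in opposite directions. Values of its other subunit genes are not given here.

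Genes of the ribosomal proteins that these factors assemble fell with TGFβ as the members did, but differed from them when RA was added to TGFβ. Of 78 cytosolic ribosomal protein genes tested, 76 fell with TGFβ against IL-2 + IL-15, among them Rpl10a (-1.0), Rpl29 (-0.92) and Rps27a (-0.78). In TGFβ + RA 77 fell against IL-2 + IL-15 and 77 against RA, with medians of -0.89 and -0.97. In these 3 comparisons, 22.4%, 32.4% and 30.8% of all tested genes were called lower. RA alone raised 6 of the 78, among them Rpl38 (0.37) and Rps2 (0.24), a smaller share than the 12.4% of all tested genes. Without RA replicate 3 it raised 31. Against TGFβ, TGFβ + RA lowered 37 of the 78 and raised 0 (median -0.16), where 22.7% of all tested genes were called lower. The members had 5 higher and 5 lower there, with a median of -0.00. An interaction below 0 was called for 31 of the 78 (12.3% of all tested genes), and for 19 to 51 with a library left out.

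Growth genes commonly listed as targets of Myc were lower, as Myc was, in both cultures with TGFβ than in IL-2 + IL-15. With TGFβ 28 of 29 fell against IL-2 + IL-15 (median -0.47), where 22.4% of all tested genes were called lower. Among the 28 were the amino acid transporter gene Slc7a5 (-1.52), the spermidine synthase gene Srm (-1.10) and the mitochondrial serine hydroxymethyltransferase gene Shmt2 (-0.85). The transferrin receptor gene Tfrc rose (0.20, edgeR adjusted p = 0.0176), where 20.7% of all tested genes were called higher. With TGFβ + RA 28 fell against IL-2 + IL-15 (median -0.74), where 32.4% of all tested genes were called lower. Slc7a5 was at -2.16 there and the lactate dehydrogenase gene Ldha at -1.02. RA raised 6 and lowered 3 of the 29, where 12.4% of all tested genes were called higher and 14.3% lower. The 3 lower genes were Slc7a5 (-0.59), Tfrc (-0.25) and Mat2a (-0.12), the last named after its value was seen. Against TGFβ, TGFβ + RA lowered 16 of the 29, with Tfrc at -1.51 and the adenylate kinase gene Ak4 at -1.74. Of all tested genes, 22.7% were called lower there. Myc was called higher there (0.15). That call was lost without TGFβ replicate 1, without TGFβ + RA replicate 1 or 2, without a filter and with the 1.5-fold minimum.

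Partners and antagonists of Myc moved in various ways. Max, the obligate partner, rose to 139 CPM in TGFβ + RA and 104 CPM in TGFβ, with 86.2 CPM in RA and 83.9 CPM in IL-2 + IL-15. Its log2 fold change against IL-2 + IL-15 was 0.72 (adjusted p = 3.45e-09) in TGFβ + RA and 0.30 (adjusted p = 3.61e-05) in TGFβ, and the interaction of 0.38 was called (adjusted p = 0.000378). Mxd1, which pairs with Max and represses the same motif, rose in all 3 cultures, to 77.2 CPM in TGFβ + RA, 73.6 CPM in TGFβ and 64.7 CPM in RA, against 44.1 CPM in IL-2 + IL-15. Mxd4 rose as well, by 0.36 in TGFβ + RA, 0.19 in TGFβ and 0.21 in RA. Mxd3, a family member known from dividing cells, stood at 0.983 CPM in TGFβ + RA, 15.6 CPM in TGFβ, 7.38 CPM in RA and 17.4 CPM in IL-2 + IL-15, and fell by 4.10 in TGFβ + RA (adjusted p = 2.12e-10). Fbxw7, which marks Myc protein for degradation, fell by 0.51 in TGFβ + RA and 0.24 in TGFβ, and Mnt rose in RA (0.20) and in TGFβ + RA (0.19). Mxi1 rose in RA (0.48), with -0.01 in TGFβ + RA and -0.02 in TGFβ, both not called. Mlxip rose in TGFβ + RA (0.29) and RA (0.29) and fell in TGFβ (-0.17). Mga, Mlx and Zbtb17 were not called against IL-2 + IL-15 in any culture, and Mycn, Mycl and Mlxipl averaged under 1 CPM in every culture.

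Other measures differed between the same libraries, and their part in the results on the members was not tested. Of 26 cell cycle genes, 17 fell with TGFβ (median -0.35), 26 with TGFβ + RA (median -2.52) and 23 with RA (median -0.66), each against IL-2 + IL-15. In these comparisons 22.4%, 32.4% and 14.3% of all tested genes were called lower. In RA cultures the cell cycle genes thus fell while 8 members rose. TGFβ + RA lay far below TGFβ for the cell cycle genes (26 of 26 lower, median -2.13), where 22.7% of all tested genes were called lower. The members' median there was -0.00. The 7 myeloid markers summed to 66.6 to 78 CPM in TGFβ + RA, 18.6 to 20.7 in TGFβ, 212 to 356 in RA and 89.1 to 152 in IL-2 + IL-15. Most of it in every library was Itgax, an integrin gene that activated CD8 T cells also express, while Adgre1 had at most 1 count and Csf1r at most 6. The 2 CD4 T cell markers summed to 26.3 to 32.3 CPM in TGFβ + RA, 29.6 to 35.8 in TGFβ, 70.0 to 86.2 in RA and 64.8 to 72.9 in IL-2 + IL-15, so they were lower with TGFβ as the members were. Most of that was Zbtb7b, while Cd4 itself had at most 70 counts in a library. The 3 natural killer cell markers summed to 1.04 to 1.57 CPM in TGFβ + RA, 0.675 to 2.07 in TGFβ, 17.9 to 52.4 in RA and 8.3 to 18.6 in IL-2 + IL-15, mostly from Klrb1c, with Ncr1 at 14 counts or fewer.

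Features of the gene bodies bear on how reads were assigned. Within 7 members lie 21 snoRNA genes on the same strand, namely 5 in Nop56, 4 in Nop58, 3 each in Ncl, Wdr43 and Gnl3, 2 in Tsr1 and 1 in Dkc1. These 7 had a median log2 fold change of -0.74 with TGFβ, and the other 28 members -0.59. A gene on the opposite strand overlaps 32.3% of the exon bases of Tsr1 (Srr) and 20.9% of those of Noc2l (Samd11), and at most 5.27% in the other members. Copies of at least 300 bases at 95% identity or more exist for 6 members, and counts assigned to these copies came to 3.14% of those of Fbl, 0.825% of those of Npm1 and at most 0.341% for the others.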

How the data were processed

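RNA from 12 libraries, 3 in each of 4 groups, was made into stranded TruSeq mRNA libraries, per the labels. The deposited values are whole-number read counts per gene, which the authors made with STAR and featureCounts on GRCm38, per the submitters' processing notes. Versions, the strand setting and the handling of reads with several positions are not given in the sources used here. No entry lacked a gene name, and 45143 of 46078 gene IDs (98.0%) were found in GENCODE vM21. Libraries held 18300206 to 33477037 counts.

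The members and all gene lists were chosen with earlier results of these data known. Genes were filtered with filterByExpr (minimum count 10), which left 14009, and scaled by TMM. A quasi-likelihood fit (edgeR 4.0.16 with limma 3.58.1, R 4.3.3) of all 12 libraries had 1 mean per group and 8 residual degrees of freedom, and p-values were adjusted by Benjamini-Hochberg over the tested genes, with calls at 0.05. Standard errors were obtained by dividing each absolute log2 fold change by the root of its F statistic. The fit was tested on simulated data.

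Genes were named as follows: all members by values, per library for those with the largest changes and for Noc4l, the 3 genes with the smallest adjusted p of each wider list, and all tested genes of the Myc and Max network. Some genes outside this rule were named after their values against IL-2 + IL-15 were seen. They were Rrp36 and Tfrc with TGFβ, Mat2a and Phlda3 with RA, and Ubtf, Ttf1 and Rrn3 with TGFβ + RA. The alternatives were DESeq2 1.42.0 (size factors, Wald test), total counts, no filter, the replicate number as a block, the 6 samples compared only, each library left out, 9 libraries, and a 1.5-fold minimum (glmTreat). The 9 libraries leave out IL-2 + IL-15 replicate 1, RA replicate 3 and TGFβ + RA replicate 3. Same-numbered samples deviated together between RA and IL-2 + IL-15 (correlations of deviations 0.341, 0.13 and 0.271), as pairing by number would give. Differently numbered samples of these groups had -0.301 to 0.084, and the labels state no pairing. The main fit has no block for any groups, and the block values are given beside its results where they change a call. At least 1 of 3 correlations was 0.1 or below for each other pair of groups. They were 0.098, 0.13 and 0.168 for TGFβ and TGFβ + RA, and 0.117, 0.075 and 0.099 for IL-2 + IL-15 and TGFβ + RA. Differently numbered samples had -0.114 to -0.017 in the first of these pairs of groups and -0.085 to 0.004 in the second. For RA and TGFβ the same-numbered correlations were 0.215, 0.036 and -0.004. Whether the numbers pair samples in any of the groups was not tested. Promoter windows came from RefSeq (GRCm38.p6).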

Additional observations from a re-analysis of the deposited data

Results flagged for a closer look

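The interaction of TGFβ and RA differed from 0 for Rrp12, the member that fell most in TGFβ + RA against IL-2 + IL-15. It was called for 1 of 35 members, where 12.3% of all tested genes had an interaction called below 0. TGFβ lowered Rrp12 more with RA (-1.27 against RA) than without RA (-0.89 against IL-2 + IL-15), a difference of -0.39 on the log2 scale (edgeR adjusted p = 0.0345). Over the alternatives other than the 1.5-fold minimum the adjusted p ran from 0.00916, with the replicate number as a block, to 0.0944, and 7 of 12 fits without 1 library lost the call.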

How the results depend on the processing

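Direction and calls of the members with TGFβ or TGFβ + RA, each set against IL-2 + IL-15, held in every alternative except the 1.5-fold minimum, apart from the uncalled Noc4l, whose value was 0.0574 with total counts and -0.0284 to 0.0113 with 1 library left out. With the 1.5-fold minimum, members lower numbered 12 in TGFβ and 13 in TGFβ + RA when set against IL-2 + IL-15, with 19 lower in TGFβ + RA against RA, with 0 higher in RA, 0 higher and 0 lower in TGFβ + RA against TGFβ and 0 for the interaction; among the 115 other biogenesis genes 2, 11 and 10 were lower in those first 3 comparisons and 0 in all other counts. In a fit of only the 6 samples, RA raised 4 members and 3 other genes and lowered 1 other gene. The replicate block gave 1 member lower in RA and 2 for the interaction, and changed no other count of members by over 1.5 times. With 9 libraries, RA lowered 1 member and 3 other genes. In TGFβ + RA 4 other genes were then higher against RA and 3 against IL-2 + IL-15, and 1 member and 9 other genes against TGFβ. The interaction was then below 0 for 7 members and 15 other genes. Of all genes, 2506 were called below 0 in that fit, against 1728 in the main fit. Without a filter, RA raised 4 and lowered 3 other genes, TGFβ + RA raised 5 other genes against IL-2 + IL-15, 4 against RA and 2 members against TGFβ, and the interaction was below 0 for 2 members and 4 other genes. DESeq2 called 3 other genes lower in RA and 4 members for the interaction. With total counts 5 other genes were higher in TGFβ and 12 in TGFβ + RA against RA. The motif was in 1 member with 250 bases.

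With 1 library left out, RA raised 5 to 11 members and 3 to 15 other genes and lowered 1 to 4. TGFβ raised 1 to 2 other genes, and TGFβ + RA raised 4 to 8 against RA and 3 to 7 against IL-2 + IL-15. Against TGFβ, TGFβ + RA raised 0 to 4 members and 7 to 12 other genes and lowered 3 to 4 and 10 to 13. The interaction was below 0 for 0 to 7 members and 3 to 12 other genes, and above 0 for 1 to 4 other genes. The cause of these shifts was not tested. Of the wider lists, RA raised 6 ribosomal protein genes, 1 to 31 with a library left out and 33 with 9 libraries.

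Depth was ample for all members, of which the lowest had 5121 counts over 12 libraries. The limit is 3 libraries a group, whose origin from separate animals is not stated.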

Other observations

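Genes of the p53 and nucleolar stress list were measured beside the assembly factors. Of 12, 10 fell with TGFβ + RA (median -0.59), 10 with TGFβ (median -0.48) and 4 with RA (median -0.34), each against IL-2 + IL-15. In these comparisons 32.4%, 22.4% and 14.3% of all tested genes were called lower. The 4 with RA were Bbc3 (-0.60), Phlda3 (-0.52), Zmat3 (-0.38) and Ccng1 (-0.37), textbook targets of p53. Rpl5 and Rpl11, whose free proteins bind Mdm2, are ribosomal protein genes counted in both lists. Cdkn1a, the cell cycle inhibitor p21, fell by 0.92 in TGFβ + RA against TGFβ.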
